A study of Mus musculus with 55 samples.

Results

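Brain endothelial marker genes were followed in RNA from the dorsal hippocampus of 55 mice. The 9 genes are Cldn5, Flt1, Ly6c1, Pecam1, Slco1a4, Itm2a, Abcb1a, Pltp and Esam. They were taken by gene symbol from the 55487 Ensembl genes counted in each mouse, and the choice was made with earlier results of these data known. All 9 passed the filter on low counts, which 16168 genes passed.

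Endothelial cells line the blood vessels of the brain and form the blood-brain barrier. Tight junctions seal the space between neighbouring cells, efflux pumps return many compounds to the blood, and carriers bring nutrients and hormones across. The cells sit on a basement membrane that they share with pericytes. They are a small minority of the cells in hippocampal tissue, so their transcripts make up a small share of a bulk library.

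Each library came from 1 mouse on the C57/BL6j background. KO mice lacked exon 4 of Cnih3, which encodes an auxiliary protein of AMPA receptors. The deletion was present in every cell and not in the endothelium alone. WT mice were 5 males (12.00 to 23.71 weeks of age), 4 metestrus females (13.00 to 18.57), 6 diestrus females (11.71 to 17.14), 5 proestrus females (12.00 to 18.71) and 7 estrus females (16.29 to 20.29). KO mice were 7 males (18.29 to 23.71 weeks), 5 metestrus females (13.29 to 22.57), 6 diestrus females (10.86 to 23.43), 4 proestrus females (13.00 to 14.57) and 6 estrus females (13.00 to 20.71). No mouse received a drug, and stage was read from vaginal cytology. All KO mice had Cnih3 mutant parents, whereas 16 of the 27 WT mice had C57/BL6j parents on both sides, so parents and genotype are partly confounded. The tissue was lysed with a mild detergent and spun at low speed, and poly-A RNA left in the supernatant was turned into cDNA.

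Total counts per library lay between 25881295 and 63547098, with a median of 53384170. Cnih3 gene counts lay between 818 and 3234 in the 27 WT mice and between 1024 and 2690 in the 28 KO mice, and a count over the whole gene does not test the loss of 1 exon. The libraries that stood apart were the 7 diestrus mice under 14 weeks of age (3 WT, 4 KO). Their mean log2 CPM over a list of 6 nuclear-retained RNAs (Malat1 and others) was 4.77 to 5.58, against 7.02 to 7.59 in the 5 older diestrus mice and 5.58 to 7.63 in all 48 other mice, the lowest of which was WT male 1949. Called marker and named endothelial results of the main fit that rest on diestrus are therefore given with and without these 7 mice. Comparisons between the age classes are the exception. Counts of genes called in lists of other cell types and of nuclear-retained RNAs are given with these mice only. Calls that arose only with a covariate or with a mouse left out were not refitted without these mice. CPM is the count scaled to the size of the library, adjusted by the TMM method. Each mouse gave 1 library, so p-values measure the spread between mice.

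Flt1, Slco1a4 and Ly6c1 were the 3 genes called by the main fit in both KO diestrus and KO proestrus against KO metestrus (below). These calls ended with other tools. The 300 bases around their start sites are shown so that their sequences can be read side by side. Esam, called in KO diestrus only, had no window. RefSeq windows (GRCm38.p6) were found for 7 of the 9 markers: Cldn5, Flt1, Ly6c1, Slco1a4, Itm2a, Abcb1a and Pltp. Capitals mark AGGAAG or its reverse complement CTTCCT, letters found in many binding sites of ETS factors, a family with known roles in endothelium.
Flt1, chr5:147725962-147726261, minus strand: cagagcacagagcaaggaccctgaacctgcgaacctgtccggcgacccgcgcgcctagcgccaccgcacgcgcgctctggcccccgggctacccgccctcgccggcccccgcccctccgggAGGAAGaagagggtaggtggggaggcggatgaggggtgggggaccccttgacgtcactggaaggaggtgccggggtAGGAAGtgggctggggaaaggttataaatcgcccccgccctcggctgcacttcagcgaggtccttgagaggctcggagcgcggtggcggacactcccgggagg
Slco1a4, chr6:141856171-141856470, minus strand: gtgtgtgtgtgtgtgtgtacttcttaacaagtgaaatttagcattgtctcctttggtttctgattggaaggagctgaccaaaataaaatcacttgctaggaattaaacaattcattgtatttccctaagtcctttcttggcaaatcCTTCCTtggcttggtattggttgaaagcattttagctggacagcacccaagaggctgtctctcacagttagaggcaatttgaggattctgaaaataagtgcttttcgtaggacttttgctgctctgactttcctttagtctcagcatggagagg
Ly6c1, chr15:75048788-75049087, minus strand: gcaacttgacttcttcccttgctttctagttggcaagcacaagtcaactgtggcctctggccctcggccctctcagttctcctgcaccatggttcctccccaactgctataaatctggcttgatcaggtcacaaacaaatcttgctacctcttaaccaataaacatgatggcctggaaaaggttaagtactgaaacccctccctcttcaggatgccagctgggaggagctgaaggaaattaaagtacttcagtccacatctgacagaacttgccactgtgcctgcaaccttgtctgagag
The motif occurred in 4 of the 7 windows (Flt1, Slco1a4, Itm2a and Abcb1a), and in 35.4% of all 32851 windows of this length in the table. The Ly6c1 window held none of these letters. The Abcb1a window lay 92986 bases from the start of the gene in the GENCODE annotation, so it describes another start site than the annotated one.

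Compared per kilobase of exon, Itm2a had the highest level of the 9 markers, with a median of 12.3 CPM per kb (range 7.81 to 24.0 over the 55 mice). Itm2a is an integral membrane protein gene on the X chromosome (chrX:107397099-107403376). Ly6c1, a GPI-anchored surface antigen of endothelium and some blood cells (chr15:75044018-75048830), followed at 6.86 CPM per kb (2.86 to 14.7). Cldn5, the main claudin of the barrier's tight junctions (chr16:18776847-18778262), was at 3.88 CPM per kb (1.51 to 8.44). Neighbours in this order overlapped over mice.

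Pltp, phospholipid transfer protein (chr2:164839518-164857711), had a median of 3.25 CPM per kb (1.71 to 8.16). Esam, an adhesion molecule of endothelial junctions (chr9:37528078-37538319), was at 2.41 CPM per kb (1.60 to 4.02). Slco1a4, an organic anion transporter (chr6:141805440-141856199), was at 0.893 CPM per kb (0.262 to 2.05). The remaining 3 lay close together at the bottom of the order. Abcb1a, the P-glycoprotein efflux pump (chr5:8660077-8748575), had a median of 0.415 CPM per kb. Flt1, the VEGF receptor 1 (chr5:147561604-147726011), was at 0.378 and Pecam1, the adhesion molecule CD31 (chr11:106654217-106750628), at 0.332 CPM per kb. Positions are GENCODE genes on GRCm38.

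Raw counts set the precision. Pecam1 and Abcb1a had between 24 and 192 and between 24 and 189 reads per library, whereas Itm2a had 463 to 2213. Ly6c1, Abcb1a and Slco1a4 have close paralogs, and reads that fit both copies were not counted, so their levels are uncertain to that extent. Ly6c2 had 3 to 37 reads per library beside 137 to 1234 for Ly6c1. Abcb1b had 39 to 132 reads beside 24 to 189 for Abcb1a. Slco1a5, Slco1a6 and Slco1a1 had median counts of 1, 0 and 0.

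The 9 markers varied together from mouse to mouse. With group means removed, Pearson's r of log2 CPM over the 55 mice was positive for all 36 pairs, from 0.295 for Cldn5 with Pecam1 to 0.816 for Flt1 with Abcb1a, with a median of 0.555. Slco1a4 and Itm2a, which lie on different chromosomes, correlated at 0.743. Slco1a4 followed the mean of the other 8 most closely (r = 0.823) and Pecam1 least (r = 0.571). These correlations describe libraries that share depth, dissection and tissue make-up, and no test was run on them. In bulk RNA, fewer endothelial cells and less RNA per endothelial cell cannot be told apart.

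The genes most like the 9 markers were themselves largely vascular. Over 16159 other genes the median r with the mean z score of the markers was -0.01, and 102 genes exceeded 0.5. Ly6a (r = 0.871), a surface antigen, Ptprb (0.841), the endothelial phosphatase VE-PTP, and Vwf (0.811), von Willebrand factor, came first. Vtn (0.744) and Rgs5 (0.702) are pericyte genes and Acta2 (0.695) is smooth muscle actin. Cp (0.739), Srgn (0.725), the transporter gene Slc22a8 (0.681) and Itih5 (0.675) completed the first 10. Of these 10 genes, 4 stood in the wider endothelial lists (Ly6a, Ptprb, Vwf, Slc22a8) and 3 in the pericyte or smooth muscle lists (Vtn, Rgs5, Acta2).

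The mean of a list of 9 pericyte genes had r = 0.765 with the markers, and that of 4 smooth muscle genes 0.696. Meningeal fibroblast genes had 0.558, choroid plexus genes 0.372 and astrocyte genes 0.169. Neuronal genes had -0.36 and the nuclear-retained RNAs 0.100. Pltp stood apart within the set. It followed smooth muscle (0.721), meningeal fibroblast (0.709) and choroid plexus genes (0.596) more closely than the other 8 markers did (at most 0.637, 0.481 and 0.311). With neuronal genes Pltp had r = -0.56, not far from Esam (-0.51) and Itm2a (-0.48). Plvap, a marker of fenestrated rather than barrier endothelium, had r = -0.05 with the markers.

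**Figure D1:**
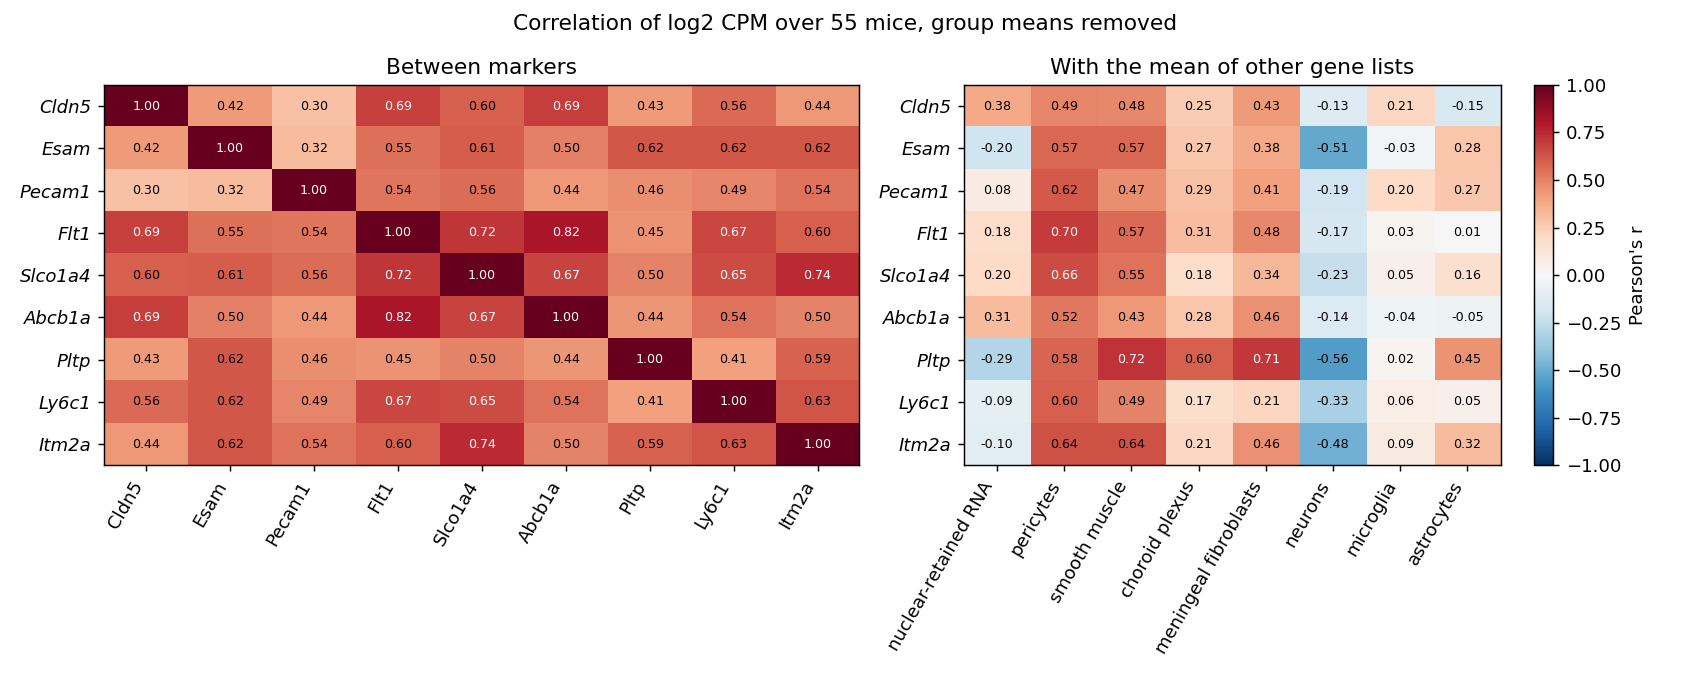
Pearson's r of log2 CPM over the 55 mice with group means removed, between pairs of markers (left) and between each marker (rows) and the mean of 8 other gene lists (right), on a scale from -1 to 1. All 36 pairs of markers are positive, from 0.295 to 0.816, and Pltp has the highest values with the smooth muscle (0.721) and meningeal fibroblast (0.709) lists.

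Within groups the markers were noisier than most genes. Their SD of log2 CPM ran from 0.306 for Esam to 0.575 for Abcb1a, and the median over all tested genes was 0.267. Group explained 15.1% (Abcb1a) to 31.7% (Ly6c1) of a marker's variance, with 22.3% for the median gene. Groups of 4 to 7 mice with this spread limit the precision, and the smallest shift that could be detected was not computed.

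**Figure D2:**
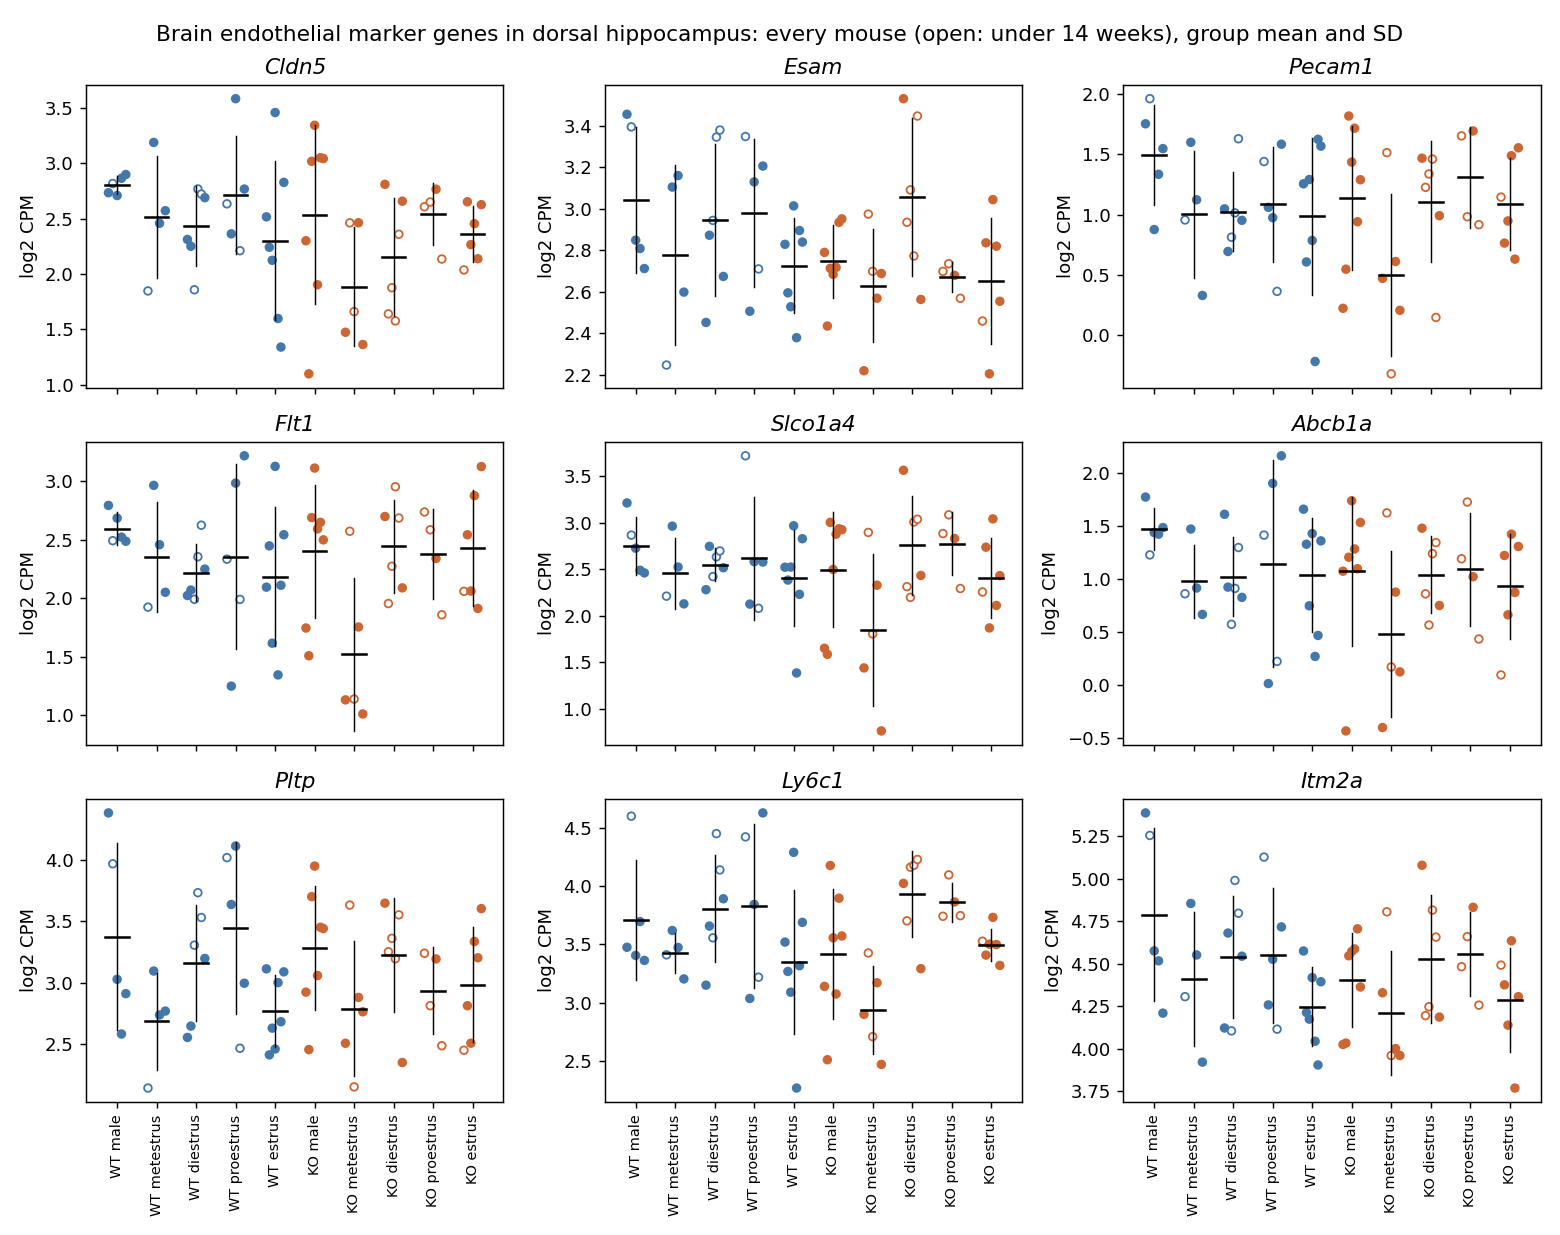
log2 CPM of the 9 markers (panels) in every mouse by group, WT in blue and KO in orange, with open circles for mice under 14 weeks, the bar at the group mean and the line 1 SD each way. KO metestrus has the lowest median of the 10 groups for 8 of the 9 markers, and 1 KO metestrus mouse sits well above the other 4 for Flt1 and Abcb1a.

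KO metestrus was the low group. By median CPM it ranked last of the 10 groups for 8 of the 9 markers, and for Pltp WT estrus and WT metestrus were lower. All 9 fold changes from KO males to KO metestrus were negative, from -0.89 for Flt1 to -0.18 for Itm2a on the log2 scale, and 0 of the 9 were called at a false discovery rate (FDR) under 0.05 by limma, where 0.359% of all genes were. At an unadjusted p under 0.05, 5 of the 9 passed by limma, beside 2056 of all 16168 genes. By edgeR 4 passed, by DESeq2 4 and by limma without quality weights 2, where all genes were not counted at that level. The group was not uniform: mouse 11_1 was the highest of its group for 8 of the 9 markers, and mice 10_1, 14_4 and 7_2 shared the lowest places. The nuclear-retained RNA means of these 3 mice were 6.28, 6.96 and 5.99 log2 CPM, against 7.40 in mouse 11_1 and 7.33 in mouse 6_1. The pericyte means of the 3 mice were 1.89, 1.23 and 1.63, against 2.11 in mouse 11_1 and 1.68 in mouse 6_1. Mouse 11_1 also had the highest smooth muscle, meningeal fibroblast and choroid plexus means of its group, at 3.05, 2.80 and 4.33. The part of these lists in the low levels was not tested here.

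The comparison of diestrus with metestrus asked how expression moves over the cycle of KO females. Flt1 was at 2.18, 5.94, 2.19, 3.36 and 2.00 CPM in the KO metestrus mice 10_1, 11_1, 14_4, 6_1 and 7_2. In the 6 KO diestrus mice it ran from 3.86 to 7.73 CPM with a median of 5.62. The groups overlapped only through mouse 11_1: 4 of the 5 metestrus mice lay below every diestrus mouse. Flt1 was higher in diestrus by 1.01 on the log2 scale (SE 0.291, limma FDR = 0.0181). Without mouse 10_1 the FDR of Flt1 was 0.0787 and without mouse 644 it was 0.0560.

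Ly6c1 was at 7.45, 10.7, 6.52, 8.99 and 5.53 CPM in the same KO metestrus mice. In KO diestrus it ran from 9.78 to 18.7 CPM with a median of 17.1, and 5 of the 6 diestrus mice lay above every metestrus mouse. The fold change of Ly6c1 was 1.09 (SE 0.219, limma FDR = 0.00114), the largest of the 9, and it passed with each of the 55 mice left out in turn. Slco1a4 was at 2.7, 7.42, 3.48, 5.01 and 1.68 CPM in metestrus and at 4.57 to 11.8 CPM in diestrus (median 6.70), and 3 of the 6 diestrus mice lay above every metestrus mouse. Its fold change was 0.88 (SE 0.278, limma FDR = 0.0329), and without mouse 10_1, 14_4, 7_2, 644 or 645 the FDR of Slco1a4 was 0.134, 0.0575, 0.0958, 0.0730 or 0.0734.

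Esam was at 4.65, 7.84, 6.48, 5.92 and 6.43 CPM in KO metestrus and ran from 5.90 to 11.5 CPM in KO diestrus (median 8.07). The ranges overlapped, with 3 of the 6 diestrus mice above every metestrus mouse. Its fold change was 0.51 (SE 0.162, limma FDR = 0.0350). Without mouse 10_1, 6_1, 532, 643 or 645 the FDR of Esam was 0.170, 0.0912, 0.0837, 0.0710 or 0.154. The other 5 markers had positive fold changes, from 0.10 for Cldn5 to 0.66 for Abcb1a, and were not called.

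In this comparison limma with sample quality weights thus called 4 of the 9 markers, all higher in diestrus, beside 10.4% of all genes called and 2.25% of all genes called higher. At an unadjusted p under 0.05 it had 7 of the 9, beside 4172 of all 16168 genes. The calls ended without the weights. Without them limma called 0 of the 9 and 0% of all genes, edgeR's quasi-likelihood test 0 of the 9 and 0%, and DESeq2 0 of the 9 and 0.0247%, while Flt1, Slco1a4, Ly6c1 and Esam had an unadjusted p under 0.05 in each. The fold changes were close to those above, at 0.99 for Ly6c1, 0.83 for Flt1, 0.82 for Slco1a4 and 0.45 for Esam in edgeR. The 4 young KO diestrus mice carried weights of 1.61 to 1.74 and the 2 older ones 0.433 and 0.509. Without diestrus mice under 14 weeks, none of the 4 was called (limma FDR of 1.00 each), and the fold changes of Flt1, Slco1a4, Ly6c1 and Esam were 0.95, 1.19, 0.72 and 0.49. With age in weeks as a covariate their FDRs were 0.138, 0.261, 0.0645 and 0.206, so none of the 4 was called.

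Other lists moved in the same comparison by limma with quality weights, which called 1325 of all 16168 genes lower. As above, 0% of all genes were called by limma without weights and by edgeR, and 0.0247% by DESeq2. Of the 6 nuclear-retained RNAs 5 fell (median -1.31), of 10 oligodendrocyte genes 8 fell (median -0.62), and of 5 blood genes 4 fell (median -0.82). Of 9 pericyte genes 1 rose (median 0.30). With the nuclear-retained RNA mean as a covariate, an alternative chosen after seeing the data, none of the 4 markers was called (FDR 0.207 to 0.811) and Ly6c1 had a fold change of 0.96. Their part in the result beyond this was not tested.

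Proestrus also stood above metestrus in KO females, a comparison without diestrus mice. Ly6c1 was at 13.4, 17.1, 14.5 and 13.4 CPM in the KO proestrus mice 12_4, 12_5, 14_1 and 14_2. Every one of these values exceeded every KO metestrus value. The fold change of Ly6c1 was 0.98 (SE 0.240, limma FDR = 0.0244), and without mouse 10_1, 12_4, 12_5 or 14_4 its FDR was 0.104, 0.122, 0.0940 or 0.0518.

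Flt1 was at 6.66, 5.99, 5.05 and 3.61 CPM in the same KO proestrus mice, and 4 of the 5 metestrus mice lay below them all. Its fold change from metestrus was 1.10 (SE 0.314, limma FDR = 0.0370). Slco1a4 was at 7.36, 8.47, 7.09 and 4.88 CPM, with 3 of the 5 metestrus mice below them all. Its fold change was 1.10 (SE 0.297, limma FDR = 0.0318). Both calls ended without any one of mice 10_1, 12_4, 12_5, 14_4 and 7_2, with FDRs for Flt1 of 0.157, 0.205, 0.130, 0.0754 and 0.0626 and for Slco1a4 of 0.15, 0.153, 0.129, 0.0610 and 0.0651.

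All 9 markers had positive fold changes from KO metestrus to KO proestrus, with a median of 0.90, and limma called 3 of the 9, all higher, beside 4.37% of all genes called and 1.5% called higher. At an unadjusted p under 0.05 it had 7 of the 9, beside 3777 of all 16168 genes. Abcb1a and Pecam1 had fold changes of 0.97 (SE 0.347, FDR = 0.0857) and 0.90 (SE 0.321, FDR = 0.0847) and were not called. Without quality weights limma called 0 of the 9 markers and 0% of genes, edgeR 0 of the 9 and 0%, and DESeq2 0 of the 9 and 0.0645%, and Flt1, Slco1a4, Ly6c1 and Pecam1 had an unadjusted p under 0.05 in each. The median fold change of the 9 choroid plexus genes was 1.48, with none called, and 1 of 9 pericyte genes rose (median 0.25). The pericyte mean was 1.86 to 2.13 log2 CPM in KO proestrus and 1.23 to 2.11 in KO metestrus; the part of these lists in the result was not tested beyond the covariates. With age in weeks as a covariate the FDR was 0.0490 for Ly6c1, 0.0565 for Flt1 and 0.0647 for Slco1a4. Ly6c1 passed with the choroid plexus, meningeal fibroblast or nuclear-retained RNA mean as a covariate (FDR 0.0387, 0.0334 and 0.0454). Flt1 passed with none of them (FDR 0.0742, 0.0660 and 0.0719), and Slco1a4 passed with the choroid plexus and meningeal means and not with the nuclear-retained RNA mean (FDR 0.0619).

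**Figure D3:**
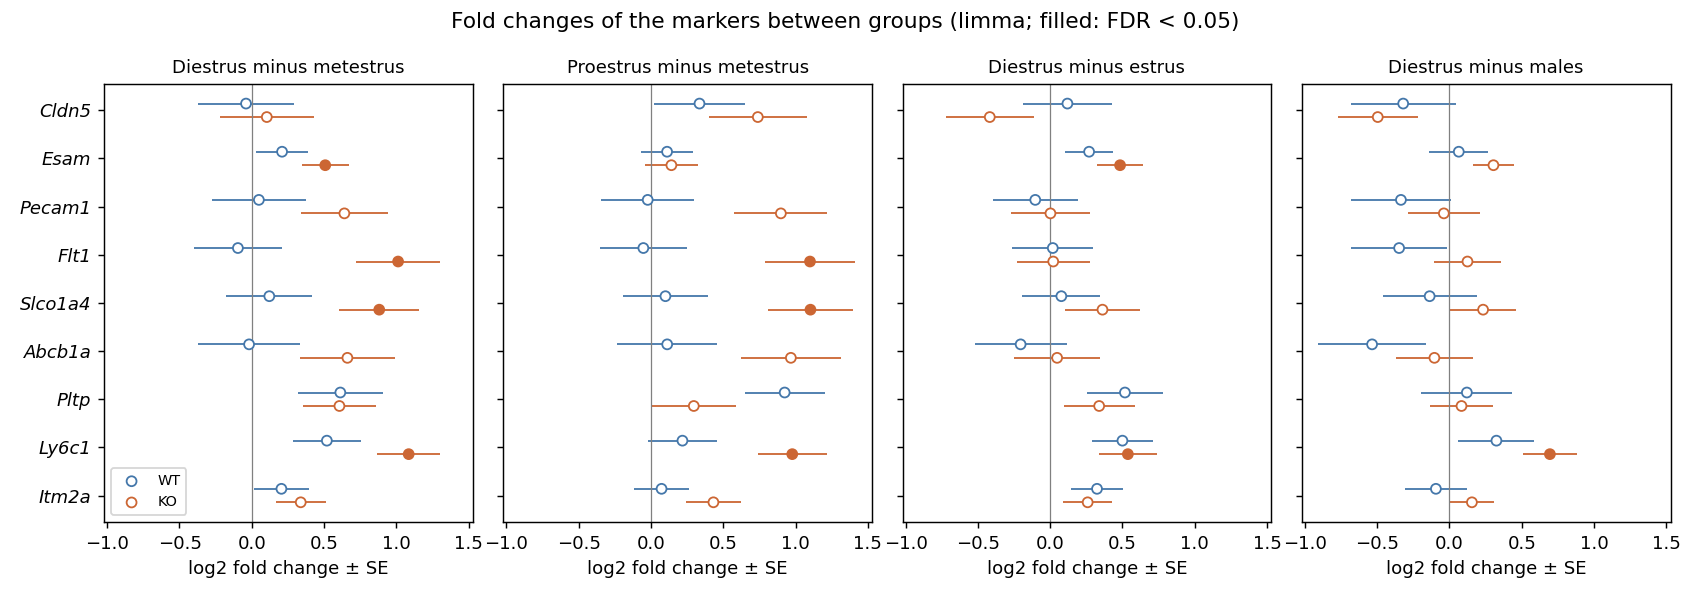
log2 fold change with its SE for the 9 markers in 4 comparisons (panels), WT in blue and KO in orange, filled where the limma FDR was under 0.05. Flt1, Slco1a4 and Ly6c1 are filled in both KO comparisons with metestrus, and no WT point is filled in these 4 panels.

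KO diestrus was also compared with KO estrus and with KO males. Esam ran from 4.6 to 8.23 CPM in KO estrus (median 6.45, n = 6), and 3 of the 6 diestrus mice lay above them all. The fold change was 0.48 (SE 0.161, limma FDR = 0.0199), and without mouse 12_3 or 645 its FDR was 0.114 or 0.102. Ly6c1 ran from 9.97 to 13.3 CPM in KO estrus (median 11.3), with 4 of the 6 diestrus mice above them all. Its fold change was 0.54 (SE 0.203, limma FDR = 0.0388), and without mouse 12_2, 9_1, 643, 644 or 645 its FDR was 0.0858, 0.0968, 0.0782, 0.0738 or 0.0834.

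Limma thus called 2 of the 9 markers higher in KO diestrus than in KO estrus, beside 30.7% of all genes called and 11.3% of all genes called higher, so 2 of 9 was not far from the background. The count was 0 of the 9 without quality weights (1.57% of genes), by edgeR (0.0866%) and by DESeq2 (0.984%), with Esam at an unadjusted p under 0.05 in each. Without diestrus mice under 14 weeks the fold change of Ly6c1 was 0.18 and that of Esam 0.47, neither called. With age as a covariate the FDRs were 0.236 and 0.0697, and with the nuclear-retained RNA mean the fold changes of Ly6c1 and Esam were 0.27 and 0.22 with an FDR of 1.00 each, so both calls ended. In this comparison 5 of the 6 nuclear-retained RNAs fell (median -1.91) and so did 6 of 10 oligodendrocyte genes. Limma with quality weights called 3127 of all 16168 genes lower there. The part of these lists in the result was not tested beyond the covariate.

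Against KO males, Ly6c1 alone was called, with males from 5.69 to 18.1 CPM (median 11.7, n = 7). The groups overlapped widely, with 2 of the 6 diestrus mice above every male. Its fold change was 0.70 (SE 0.185, limma FDR = 0.00382), and it passed with each mouse left out in turn. This is 1 of 9 markers beside 28.7% of all genes called and 10.7% of all genes called higher, which is near the share of markers. The count was 0 of the 9 without quality weights (6.54% of genes), by edgeR (5.03%) and by DESeq2 (8.84%). At an unadjusted p under 0.05 Esam passed by edgeR and DESeq2 and Ly6c1 by limma without weights. Without diestrus mice under 14 weeks the fold change of Ly6c1 was 0.33 (limma FDR = 0.865), and with the nuclear-retained RNA covariate 0.46 (FDR = 0.219). With age as a covariate its FDR was 0.280. Of the 6 nuclear-retained RNAs 5 fell (median -1.52), beside 2909 of all 16168 genes called lower by limma with quality weights. Over all 5 comparisons of KO females with KO males, Ly6c1 was the only marker called, and 33.7% of all genes were. Leaving out KO male 2016 added Cldn5, lower in diestrus by -0.74 (limma FDR = 0.0306), and leaving out KO diestrus mouse 644 added Esam, higher by 0.38 (FDR = 0.0488).

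Over the 6 pairs of KO stages, 4 of the 9 markers were called at least once (Flt1, Ly6c1, Slco1a4 and Esam), against 46.2% of all genes. Cldn5, Pecam1, Itm2a, Abcb1a and Pltp were called in none of them. With the meningeal fibroblast mean as a covariate Pltp was also called, higher in KO diestrus than in KO metestrus (0.68, limma FDR = 0.0160), KO proestrus (0.67, FDR = 0.00806) and KO estrus (0.56, FDR = 0.0208). Without KO metestrus mouse 10_1 the count was 2. Between KO metestrus and KO estrus all 9 were lower in metestrus, with a median of -0.52, and none was called.

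Across all comparisons 12 marker results were called. All 36 values given for them by edgeR, DESeq2 and limma without quality weights had the same direction and none passed, with FDR from 0.123 to 0.604.

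**Figure D4:**
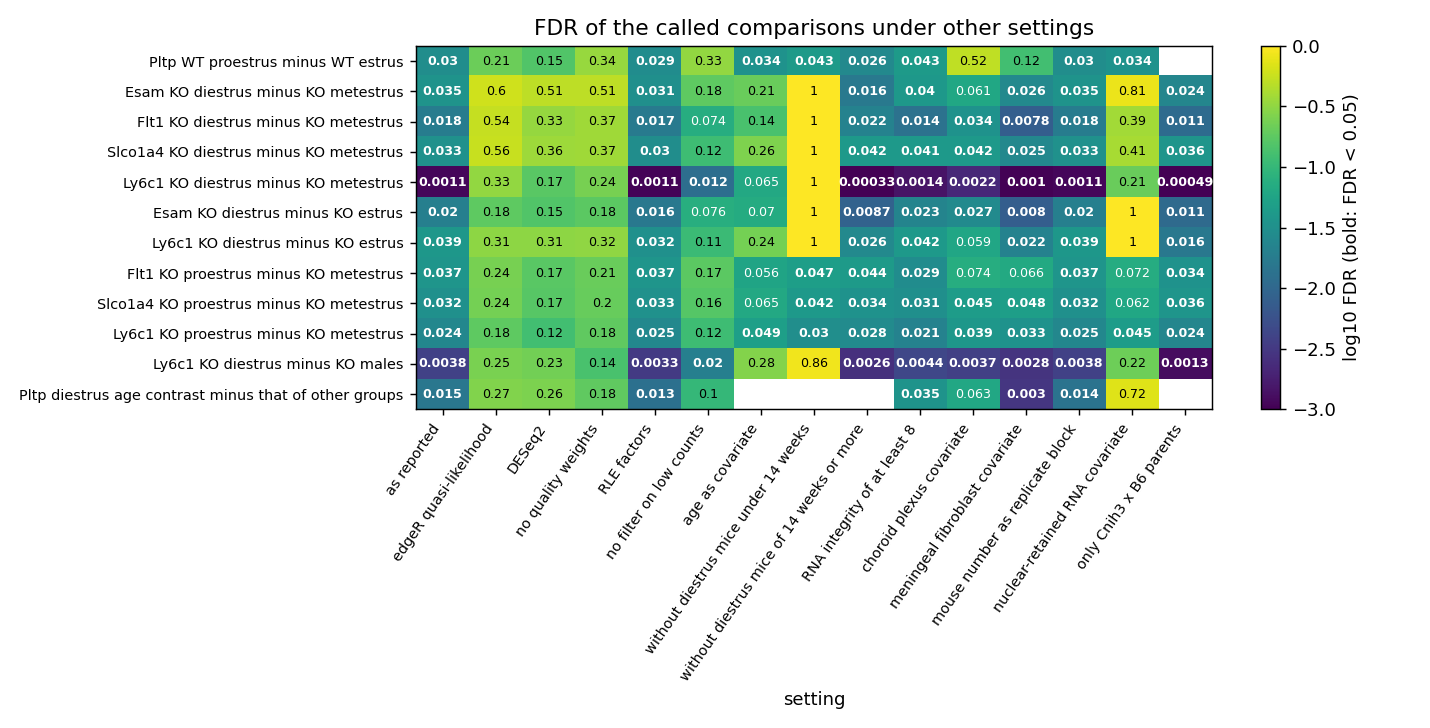
FDR of the 12 comparisons in which a marker was called (rows) as reported and under 14 other settings (columns), coloured by log10 FDR, with values under 0.05 in bold and blank cells where a setting could not be applied. None of the 12 is bold in the edgeR, DESeq2 and no-weights columns, where FDR ran from 0.123 to 0.604.

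In WT females, from metestrus to diestrus the 9 fold changes ran from -0.10 for Flt1 to 0.61 for Pltp, with none called. Over the 6 pairs of WT stages limma called 1 of the 9 markers, Pltp, and 30.6% of all genes. Pltp was at 12.4, 16.2, 17.3, 5.51 and 7.96 CPM in the WT proestrus mice 2_3, 20_2, 4_1, 5_4 and 8_2. In the 7 WT estrus mice it ran from 5.30 to 8.64 CPM with a median of 6.40, so 3 of the 5 proestrus mice lay above every estrus mouse and the other 2 lay among them.

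Leaving out any one of the older WT diestrus mice 2_2, 380_4 and 8_1 gave 3 called markers in WT stages (Ly6c1, Pltp and Esam, each higher in diestrus than in estrus), and leaving out WT estrus mouse 3_2 gave 2 (Ly6c1 and Pltp). Without mouse 2_2, for example, Ly6c1 was higher in diestrus than in estrus by 0.62 (limma FDR = 0.0130). Without the diestrus mice under 14 weeks, Ly6c1, Pltp and Esam were not called in this comparison. The share of all genes called in the leave-out fits is not given here.

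The fold change of Pltp from WT estrus to WT proestrus was 0.83 (SE 0.244, limma FDR = 0.0295), beside 6.82% of all genes called and 5.25% higher. Without mouse 2_1, 2_3, 20_2 or 4_1 its FDR was 0.0510, 0.105, 0.0831 or 0.118. Limma without quality weights (0% of genes called), edgeR (0.0928%) and DESeq2 (0.458%) called 0 of the 9 markers, with 1 of the 9 at an unadjusted p under 0.05 in each. In the same comparison 8 of 9 choroid plexus genes rose, with a median of 3.16, and their mean log2 CPM was 0.72 to 4.49 in WT proestrus and -0.87 to 1.60 in WT estrus. Of 7 meningeal fibroblast genes 2 rose. With the choroid plexus mean as a covariate the fold change of Pltp was 0.29 (FDR = 0.516), and with the meningeal fibroblast mean 0.45 (FDR = 0.123).

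WT males had all 9 medians within the range of the female groups or above it. The average of WT females was below WT males for all 9 markers, from -0.45 to -0.0048 with a median of -0.25. None of the 9 was called in any of the 5 comparisons of WT females with males by limma, edgeR or DESeq2, where limma called 0.0866% of all genes. At an unadjusted p under 0.05, 1 of the 9 passed by limma, in estrus against males, beside 1286 of all 16168 genes. Over the 5 comparisons edgeR and DESeq2 had 2 each, where all genes were not counted at that level. WT males 1949 and 19_1 had Itm2a at 41.9 and 38.2 CPM and Pltp at 20.9 and 15.7 CPM, against 18.5 to 23.8 and 5.97 to 8.14 CPM in the other 3 WT males. The same 2 libraries had the lowest nuclear-retained RNA means of that group, 5.58 and 6.28. They also had its highest means of smooth muscle (3.36 and 4.14), meningeal fibroblast (3.94 and 2.66) and pericyte genes (2.29 and 2.31).

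Genotype was compared within each stage, in males and overall. All 9 markers were lower in KO than in WT mice on average, by a median of -0.12 on the log2 scale. The strongest was Cldn5 at -0.34 (SE 0.141, limma FDR = 0.191), and Esam had -0.17 (SE 0.0784, FDR = 0.240). In metestrus Flt1 had -0.91 (SE 0.309, FDR = 0.349), and the 4 WT metestrus mice were at 3.78, 4.13, 5.48 and 7.80 CPM. Thus 4 of the 5 KO metestrus mice lay below every WT metestrus mouse for Flt1.

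None of the 9 was called in the 6 genotype comparisons by limma, edgeR or DESeq2, and limma called 3.64% of all genes in at least 1 of them and 3.40% in the overall one. At an unadjusted p under 0.05, 6 of the 9 passed in at least 1 by limma and 2 by edgeR and by DESeq2. All genes were not counted over the 6 comparisons at that level, so these counts have no background. In the comparison over all mice 2 of the 9 did by limma, beside 2772 of all 16168 genes. The direct test of whether group differences differed between genotypes called 0 of the 9 and 0% of all genes by limma. Flt1 had the smallest p of that test, 0.0444 (limma FDR = 0.832), and edgeR and DESeq2 had 0 of the 9 at an unadjusted p under 0.05. The stage differences called in KO and not in WT females are therefore not shown to differ between the genotypes.

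The diestrus mice were split by age at 14 weeks. In WT diestrus 0 of the 3 young mice and 2 of the 3 older ones had C57/BL6j parents on both sides. Age class and parents are thus partly confounded there, and other differences between the classes were not tested. Comparing diestrus mice under 14 weeks with older ones, limma called 0 of the 9 markers in WT (31.0% of all genes called), 0 of 9 in KO (8.75%) and 0 of 9 in their average (35.6%). At an unadjusted p under 0.05, 2 of the 9 passed in at least 1 of these (Esam and Pltp by limma, Cldn5 and Esam by edgeR and by DESeq2). All genes were not counted in that way. In the average 1 of the 9 did by limma, beside 7316 of all 16168 genes. The 9 fold changes of the average ran from -0.41 for Cldn5 to 0.52 for Pltp, with a median of 0.01. Leaving out KO mouse 2592 gave 2 calls in this comparison, Esam (0.52, FDR = 0.0287) and Pltp (0.84, FDR = 0.0234), and leaving out WT mouse 548 gave 1, Esam in WT (0.66, FDR = 0.0345).

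Esam was at 7.68, 10.1 and 10.4 CPM in the young WT diestrus mice 548, 549 and 569 and at 5.46, 7.31 and 6.37 CPM in the older mice 2_2, 380_4 and 8_1. The 2 age classes of WT diestrus did not overlap for Esam, with a fold change of 0.52 (SE 0.223, limma FDR = 0.0693). Nor did they for Pltp, at 9.88 to 13.3 CPM in the young and 5.85 to 9.16 CPM in the older mice. In KO diestrus the classes overlapped, with 6.82 to 10.9 CPM in the 4 young mice and 5.90 and 11.5 CPM in the 2 older ones (fold change 0.03, SE 0.246). Cldn5 had the opposite sign in KO diestrus, at 3.11, 3.66, 2.97 and 5.12 CPM in the young mice 532, 643, 644 and 645 and at 7.00 and 6.30 CPM in mice 2592 and 7_1. These Cldn5 values did not overlap either, and the fold change was -0.85 (SE 0.438, limma FDR = 0.226). The share of all genes without overlap was not counted, here or in the other comparisons, so no conclusion is drawn from it.

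Outside diestrus, 10 young and 33 older mice were compared with their groups held apart. Limma called 0 of the 9 markers (0.489% of all genes). At an unadjusted p under 0.05 it had 1 of the 9, Pltp, beside 2468 of all 16168 genes, and edgeR and DESeq2 had 0 of the 9. Pltp had a fold change of -0.46 (SE 0.20, FDR = 0.246) outside diestrus and 0.52 (SE 0.248, FDR = 0.0995) in diestrus. The difference between these contrasts was 0.98 (SE 0.319, limma FDR = 0.0154), the only 1 of 9 markers called, beside 34.1% of all genes called and 14.4% called higher.

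That difference for Pltp was 0.55 by edgeR (FDR = 0.268), 0.58 by DESeq2 (FDR = 0.257) and 0.67 by limma without quality weights (FDR = 0.183), so these called 0 of the 9 markers, against 16.3%, 17.7% and 16.1% of genes, and had 0 of the 9 at an unadjusted p under 0.05. It ended without WT proestrus mouse 5_4 (FDR = 0.0593) or KO diestrus mouse 7_1 (FDR = 0.119), and without KO diestrus mouse 2592 Esam was called as well (0.58, FDR = 0.0432). With the nuclear-retained RNA mean as a covariate it was 0.46 (FDR = 0.720), and with the choroid plexus mean 0.64 (FDR = 0.0631). In the same contrast 5 of 6 nuclear-retained RNAs fell (median -2.38), beside 3188 of all 16168 genes called lower. The choroid plexus genes had a median of 1.77 with none called.

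**Figure D5:**
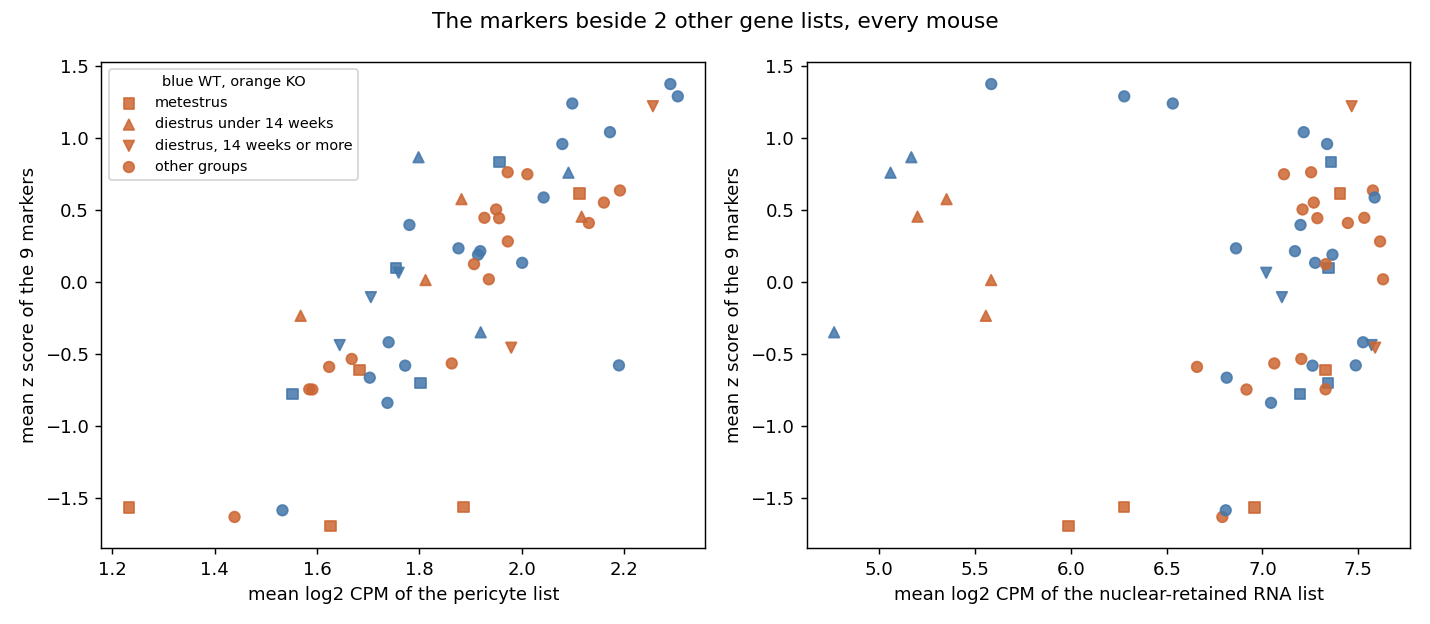
Mean z score of the 9 markers in every mouse against the mean log2 CPM of the pericyte list (left) and of the nuclear-retained RNA list (right), WT in blue and KO in orange, with squares for metestrus and triangles for diestrus. The markers rise with the pericyte list. On the right panel the 7 young diestrus mice lie at the low end, at 4.77 to 5.58, with WT male 1949 next to them at 5.58. Their marker scores run from -0.35 (mouse 548) to 0.86 (mouse 569).

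A wider set of 70 endothelial genes, of which 63 were tested, was described by its lists, which were drawn up with earlier results known. The 13 transporter genes had a negative median in each of the 8 comparisons of diestrus with another stage or with males of its genotype, and the median of the markers was positive in 6 of them, the exceptions being KO diestrus against KO proestrus (-0.09) and WT diestrus against WT males (-0.14). From KO metestrus to KO diestrus the median of the markers was 0.64 and that of the transporter genes -0.17, with 2 of 13 called lower. Limma called 1325 of all 16168 genes lower there. From KO estrus to KO diestrus 6 of 13 transporter genes fell (median -0.34), beside 3127 of all 16168 genes. In the same comparison 2 of 9 markers rose (median 0.26). In WT diestrus against WT estrus 6 of 13 transporter genes fell (median -0.35), beside 2113 of all 16168 genes. No marker was called there (median 0.12). The mean of the transporter genes was 2.66 to 3.24 log2 CPM in the 7 young diestrus mice, 3.30 to 3.65 in the 5 older ones, 3.17 to 3.64 in KO estrus and 3.27 to 3.51 in WT estrus. Without the young diestrus mice 0 of the 13 were called in these 8 comparisons. The negative medians then did not hold in KO. They were 0.18, 0.05, -0.006 and 0.13 in KO diestrus against KO metestrus, proestrus, estrus and males. In WT they ran from -0.08 against males to -0.01 against metestrus.

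Lrp8, a receptor of the LDL receptor family, differed by -0.79 (SE 0.118, limma FDR = 9.00e-06) and Slc16a1, the monocarboxylate transporter 1, by -0.88 (SE 0.189, FDR = 0.000505) between KO diestrus and KO estrus. Without the young diestrus mice neither passed (fold changes -0.20 and -0.54, FDR 1.00 each), and Slc16a1 also missed the threshold by edgeR (FDR = 0.0931). Slc7a5 (-0.89, SE 0.133, FDR = 9.09e-07) and Slc7a1 (-0.70, SE 0.118, FDR = 7.34e-06), both amino acid transporters, fell in young against older diestrus mice, also by edgeR, DESeq2 and limma without weights. Mfsd2a, the lipid carrier of barrier endothelium, was higher in KO proestrus than in KO metestrus by 0.57 (SE 0.138, limma FDR = 0.0244) and than in WT proestrus by 0.66 (SE 0.15, FDR = 0.0369). The Mfsd2a calls ended by edgeR (FDR 0.174 and 0.894), DESeq2 (0.0897 and 0.630) and limma without weights (0.175 and 0.999). Several of these carriers are also made by neurons and glia, and the mean of the transporter list had r = 0.396 with the markers.

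Of the VEGF and angiopoietin pathway, in which Flt1 acts as a decoy receptor for VEGF, 11 of 13 genes were tested. The co-receptors Nrp2 and Nrp1 were lower in diestrus by -0.55 (SE 0.118, limma FDR = 0.00123) and -0.36 (SE 0.112, FDR = 0.0189) in WT diestrus against WT estrus. Without the young diestrus mice these were -0.15 and 0.08 and were not called, and by edgeR both missed the threshold (FDR 0.118 and 0.260). Both were lower in young than in older diestrus mice, by -0.63 (FDR = 1.25e-06) and -0.52 (FDR = 3.15e-05), also by the other 3 fits. Vegfa, the ligand, was lower in KO diestrus than in KO proestrus by -0.82 (SE 0.247, FDR = 0.00813), and Angpt1, the Tie2 ligand, was higher in young diestrus mice by 0.62 (SE 0.218, FDR = 0.0227). The placental growth factor gene Pgf was higher in WT diestrus than in WT estrus by 0.36 (SE 0.123, FDR = 0.0302). The calls of Vegfa and Pgf ended by edgeR (FDR 0.476 and 0.300), DESeq2 and limma without weights, and without the young diestrus mice, where Vegfa was at 0.16 and Pgf at 0.11. Angpt1 passed in all 3 of those fits (FDR 0.0266 to 0.0438). The list's mean had r = 0.775 with the markers across mice.

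Among the junction genes, F11r, a junctional adhesion molecule, was lower in KO diestrus than in KO proestrus by -0.56 (SE 0.156, limma FDR = 0.00430), and missed the threshold by edgeR (FDR = 0.0609), by limma without weights (0.0540) and without the young diestrus mice (0.818). Of the 7 tested transcription factors, Epas1, the hypoxia-inducible factor HIF-2 alpha, was higher in KO diestrus than in KO males by 0.59 (SE 0.107, FDR = 5.12e-05). Epas1 passed by edgeR, DESeq2 and limma without weights, but without the young diestrus mice its fold change was -0.01 (FDR = 0.999). Sox18, a regulator of vessel development, was higher in WT proestrus than in WT estrus by 1.32 (SE 0.333, FDR = 0.0114), a call that ended by edgeR, DESeq2 and limma without weights (FDR 0.251 to 0.305). Plvap was higher in young diestrus mice by 0.47 (SE 0.131, FDR = 0.00466), and passed in those 3 fits too.

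The fifth list held 22 other endothelial genes. Ly6a differed by 1.34 (SE 0.289, limma FDR = 0.00217) and Adgrf5, an adhesion receptor of endothelium, by 1.21 (SE 0.330, FDR = 0.0128) between KO diestrus and KO metestrus, both in the direction of Flt1, Ly6c1 and Slco1a4. Both calls ended by edgeR, DESeq2 and limma without weights (FDR 0.244 to 0.540), and without the young diestrus mice, where the fold changes were 1.12 and 1.66 (FDR 1.00 each). Bsg, basigin, went the other way in KO diestrus against KO proestrus, by -0.69 (SE 0.0953, FDR = 1.02e-06). It passed in those 3 fits, and without the young diestrus mice it was -0.49 (FDR = 0.612). Cxcl12 (-0.35, SE 0.0653, FDR = 0.000367) and Eng (-0.37, SE 0.111, FDR = 0.0484), an endothelial co-receptor of TGF-beta, were lower in all KO than in all WT mice, where no marker was called. Cxcl12 passed in all 4 of these other fits (FDR 0.000382 to 0.00377) and Eng in none (FDR 0.549 to 0.738).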

How the data were processed

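RNA from the dorsal hippocampus of 55 mice was sequenced, 1 library each. The authors aligned reads with STAR 2.7.9a and used featureCounts 2.0.3 to count reads with a single alignment over each Ensembl gene (GRCm38). The deposited gene counts are raw. The authors' deposited log2 CPM served as a check and was matched to within 4.97e-14 over 16164 genes. Totals of 25881295 to 63547098 reads set the precision, and the part of counting error in the spread between mice was not estimated.

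A gene entered the fit when it exceeded 1 CPM in 10 or more libraries. After dropping 5 ribosomal RNA genes, 16168 were tested. As in the study's methods, TMM factors and limma 3.58.1 voom with sample quality weights were fitted as 1 model of 10 groups in R 4.3.3, with Benjamini-Hochberg adjustment within a comparison and calls at FDR under 0.05. Age contrasts used a boundary of 14 weeks. All genes were counted at an unadjusted p under 0.05 only in single comparisons of the main fit. Groups and ages came from the labels. The code was tested on simulated data.

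Alternatives were edgeR 4.0.16 (quasi-likelihood), DESeq2 1.42.0, no quality weights, RLE factors, no count filter, age, list means as covariates, subsets of mice, a block for mouse number and each mouse left out. The nuclear-retained RNA covariate, and the refits of genes outside the 9 markers, were chosen after seeing the data. Mouse numbers were not stated to pair mice. The members and all gene lists were chosen with earlier results of these data known. Named beyond the 9 were, per list and family of comparisons, up to 2 called genes of smallest FDR in each direction, and the 10 genes most correlated with the markers. A single column (1) of the counts had no sample in the list and was not used. The authors' linear CPM tables and transcript counts were not used here. Promoter sequences came from RefSeq. A result of 1 gene that the rule would name is not reported here.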

Additional observations from a re-analysis of the deposited data

Results flagged for a closer look

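Among 90 combinations of a marker and a group, 4 held a mouse far from the rest of its group, and chance flags about 1 in 20 such groups. Ly6c1 was at 24.2 CPM in WT male 19_1, against 10.3 to 12.9 CPM in the other 4 WT males. Pecam1 was at 1.09 CPM in KO diestrus mouse 645, against 1.98 to 2.76 CPM in the other 5. Abcb1a was at 0.734 CPM in KO male 2016, against 2.10 to 3.32 CPM in the other 6. Pltp was at 5.08 CPM in KO diestrus mouse 7_1, against 9.15 to 12.5 CPM in the other 5.

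The contrast of young with older mice differed for Pltp between diestrus and the other groups by 0.98 on the log2 scale (SE 0.319, limma FDR = 0.0154), a direct test of the difference, and the call ended without mouse 7_1 (FDR = 0.119).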

How the results depend on the processing

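No marker result called by limma with quality weights reversed under any alternative run. The counts of markers called, 1 in WT stage pairs, 4 in KO stage pairs, 1 for KO females against males and 1 for the difference of the age contrasts, were 0 each with edgeR, DESeq2 and no quality weights. Without the count filter they were 0, 1, 1 and 0. With age as a covariate the KO stage pairs gave 1 and KO females against males 0, and with the nuclear-retained RNA covariate, chosen after seeing the data, these gave 1 and 0 and the age difference 0. The choroid plexus covariate gave 0 in WT stage pairs and 0 for the age difference. The meningeal fibroblast covariate gave 0 in WT stage pairs and 1 for young against older diestrus mice, where the count had been 0, and 5 in KO stage pairs, Pltp being added. Without diestrus mice of 14 weeks or more WT stage pairs gave 3, and without those under 14 weeks KO females against males gave 0. The shares of all genes called are given above for edgeR, DESeq2 and no quality weights. They are not given for the other settings or for single mice left out. A change in these counts therefore cannot be told from a change over all genes. The causes were not tested.

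Leaving out single mice gave 0 to 3 in WT stage pairs, 2 to 4 in KO stage pairs, 1 to 2 for KO females against males, 0 to 2 for young against older diestrus mice and 0 to 2 for the age difference. The counts for WT sex, genotype, the interaction and age outside diestrus were 0 throughout.

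With mouse number as a replicate block the consensus correlation was -0.0025 over 37 number prefixes, 8 of them with over 1 mouse, and the counts stayed 1, 4, 1 and 1. The block changed no call of a marker. Of 22 named results in other endothelial genes edgeR called 10, DESeq2 12 and limma without weights 12, and of the 16 that could be fitted without diestrus mice under 14 weeks 3 were called, while Nrp1, Vegfa and Epas1 changed sign there. Gene sums of the transcript counts were not run. Low counts of Pecam1 and Abcb1a and groups of 4 to 7 mice limit the precision.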
